A study of Mus musculus with 33 samples.

Results

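The receptors and the adaptor of the megalin-cubilin uptake machinery were followed through embryoid body (EB) differentiation of mouse embryonic stem (ES) cells. The set was chosen by gene symbol and has 4 members, *Lrp2*, *Cubn*, *Amn* and *Dab2*, all listed among the 16336 genes of the deposited table. E14Tg2a, a 129/Ola ES cell line, served as the wild type, and ΔK9.1 and ΔK9.2 are mutant clones derived from it by a homozygous deletion of the region upstream of *Nanog* that carries H3K9me3. Each mutant line is therefore 1 clone. Cells of every line were grown on gelatine in medium with 10% FCS and LIF (day 0) or taken through 4, 6 or 8 days of EB differentiation in medium with 10% FCS and no LIF. Aggregates were kept on untreated dishes up to day 4 and were then replated sparsely on gelatine for days 6 and 8, so these days also differ from day 4 in the culture surface. Poly-A RNA was sequenced in 33 libraries, 3 for each line on days 0, 4 and 8 and 2 for each line, numbered 2 and 3, on day 6. The comparisons ask how the members change as E14Tg2a differentiates and whether they change alike in cells without the *Nanog* region.

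Visceral endoderm is the absorptive outer layer that surrounds the early mouse embryo, and it takes up proteins, lipids and vitamins before a placenta is working. LRP2, or megalin, is a giant receptor of the LDL receptor family that spans the membrane and carries its own signals for endocytosis. Cubilin, encoded by *Cubn*, is a large extracellular receptor without a membrane-spanning segment, and it depends on amnionless, encoded by *Amn*, to reach the cell surface and to be internalised; the pair is known as cubam. DAB2 is a clathrin adaptor that binds NPxY signals in the tails of such receptors and links them to coated pits.

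On mm10 with GENCODE M21, *Lrp2* lies at chr2:69424340-69586065 and *Cubn* at chr2:13276338-13491813, both on the minus strand. *Amn*, the shortest of the set, lies at chr12:111271095-111276426, and *Dab2* lies at chr15:6299788-6440712, both on the plus strand. *Cubn* overlaps the transcript Gm13270, and *Dab2* overlaps the antisense transcript Gm16311 and the pseudogene Gm18888, each on the opposite strand; the libraries kept strand. The 250 bases before each RefSeq start (GRCm38.p6, the strand of the gene, 5′ to 3′) are shown so that members with like and unlike courses over differentiation can be set side by side, with CG dinucleotides in capitals. *Dab2* has a pair of annotated starts. The RefSeq start of *Cubn* lies upstream of its GENCODE M21 start, and which start these cells use cannot be read from gene-level TPM.
Lrp2, chr2:69586030-69586279: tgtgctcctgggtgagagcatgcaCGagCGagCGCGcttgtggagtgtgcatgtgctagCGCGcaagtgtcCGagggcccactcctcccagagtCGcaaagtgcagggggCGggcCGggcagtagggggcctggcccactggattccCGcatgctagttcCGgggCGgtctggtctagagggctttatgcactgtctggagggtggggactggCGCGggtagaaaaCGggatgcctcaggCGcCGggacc
Cubn, chr2:13491877-13492126: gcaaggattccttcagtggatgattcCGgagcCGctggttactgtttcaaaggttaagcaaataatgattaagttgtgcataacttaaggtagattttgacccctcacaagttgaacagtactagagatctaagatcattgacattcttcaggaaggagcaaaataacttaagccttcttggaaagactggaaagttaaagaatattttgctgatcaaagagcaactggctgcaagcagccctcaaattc
Amn, chr12:111270846-111271095: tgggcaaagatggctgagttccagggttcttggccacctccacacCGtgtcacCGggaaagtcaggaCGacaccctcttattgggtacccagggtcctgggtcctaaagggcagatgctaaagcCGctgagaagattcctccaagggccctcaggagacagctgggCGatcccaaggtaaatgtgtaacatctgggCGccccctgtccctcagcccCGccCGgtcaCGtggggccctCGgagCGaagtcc
Dab2 start 1, chr15:6299539-6299788: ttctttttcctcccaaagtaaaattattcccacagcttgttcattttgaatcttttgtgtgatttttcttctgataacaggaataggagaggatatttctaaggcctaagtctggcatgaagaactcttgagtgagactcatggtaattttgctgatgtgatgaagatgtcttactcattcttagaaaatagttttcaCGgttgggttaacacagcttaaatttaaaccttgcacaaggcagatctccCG
Dab2 start 2, chr15:6386498-6386747: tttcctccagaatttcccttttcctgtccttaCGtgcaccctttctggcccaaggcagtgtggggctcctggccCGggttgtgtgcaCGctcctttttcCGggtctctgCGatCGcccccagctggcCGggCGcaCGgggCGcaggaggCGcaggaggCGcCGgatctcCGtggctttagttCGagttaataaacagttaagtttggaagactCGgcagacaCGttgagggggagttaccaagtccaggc
The *Lrp2* window was 66.4% GC with 18 CG dinucleotides, and the *Cubn* window was 39.6% GC with 2. The *Amn* window was 61.2% GC with 11 CG dinucleotides. The *Dab2* windows had 36.8% GC and 2 CG dinucleotides at start 1, and 60% GC and 17 at start 2. The medians over all 32851 promoters of this length were 52.4% and 6, so *Cubn* and *Amn*, whose RNA levels moved most alike, lay on opposite sides of both in these windows. Short motifs of endoderm factors were searched on both strands. The GATA motif was spelled AGATAA and occurs in 9.99% of all promoters. The HNF1 motif was spelled GTTAAT and occurs in 6.43%. The FOXA motif was spelled TGTTTAC and occurs in 3.17%. The HNF4 motif was spelled CAAAGTCC and occurs in 1.20%, and the SOX motif, spelled AACAAT, occurs in 9.42%. In these 5 windows 1 match was found, the HNF1 letters at start 2 of *Dab2*, 65 bases before the start.

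Levels are given as TPM, which adjust for transcript length and for the total of each library, so that genes can be compared within a library. The listed TPM keep no count, and the depth behind a value is unknown. Tests used limma on log2(TPM + 1), with a call set at an adjusted p below 0.05 and an absolute log2 fold change above 1. This scale understates changes of genes near or below 1 TPM. The study's methods describe the replicates as independent assays in which the lines were differentiated side by side, and the labels do not say which library belongs to which assay. These are bulk samples, in which fewer cells of a type and less RNA per cell cannot be told apart. Mean *Nanog*, the gene beside the deletion, fell in E14Tg2a from 344.0 TPM on day 0 to 26.8 TPM on day 8, when ΔK9.1 had a mean of 98.9 TPM (60.0 TPM without library 3, at 176.7 TPM) and ΔK9.2 one of 104.8 TPM. The libraries numbered 1 stood apart for this machinery. Each of the 4 members was highest in library 1 in all 3 lines on day 0 and again on day 4, as were 15.6% and 16.2% of all genes, but no member was on day 8. Of 13 visceral endoderm markers, 8 showed this order on day 0 and 10 on day 4, and of 12 parietal endoderm markers 9 and 7 did.

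All 4 members rose in E14Tg2a between day 0 and day 4, and day 4 was the peak of each mean. The call was past the thresholds for 4 of 4, where 3.67% of all genes were called higher. *Cubn* was at 13.0, 0.441 and 1.14 TPM in E14Tg2a libraries 1, 2 and 3 on day 0 and at 47.8, 5.29 and 26.9 TPM on day 4. Its groups overlapped, because library 1 of day 0 was above library 2 of day 4. The log2 fold change was 2.54 ± 0.85 (SE, n = 3 and 3, adjusted p = 0.0273, limma). Its partner *Amn* was at 16.2, 1.5 and 1.38 TPM on day 0 and at 67.3, 8.14 and 26.2 TPM on day 4. The same 2 libraries overlapped, and the log2 fold change was 2.46 ± 0.73 (adjusted p = 0.0140).

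*Lrp2* rose from 12.2, 3.02 and 4.06 TPM to 31.5, 12.5 and 21.4 TPM. Every day 4 library was above every day 0 library, as was so for 15.4% of all genes, and the log2 fold change was 1.73 ± 0.47 (adjusted p = 0.00780). The adaptor *Dab2* was the most abundant member on day 4, at 208.4, 29.7 and 129.3 TPM against 58.2, 2.67 and 4.27 TPM on day 0. Its log2 fold change was 3.17 ± 0.88 (adjusted p = 0.00892), again with library 1 of day 0 above library 2 of day 4. None of the 4 calls remained without library 1 of day 4 or without library 2 of day 0, and 1 of 4, *Lrp2*, remained without library 3 of day 0; *Cubn* was also lost without library 3 of day 4 and at a pseudocount of 0.1 (adjusted p = 0.0618). A fit of the compared groups alone called none of the 4, where 6.42% of all genes were called. All 4 remained when every library numbered 1 was omitted, an alternative chosen after the values were seen.

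**Figure D1:**
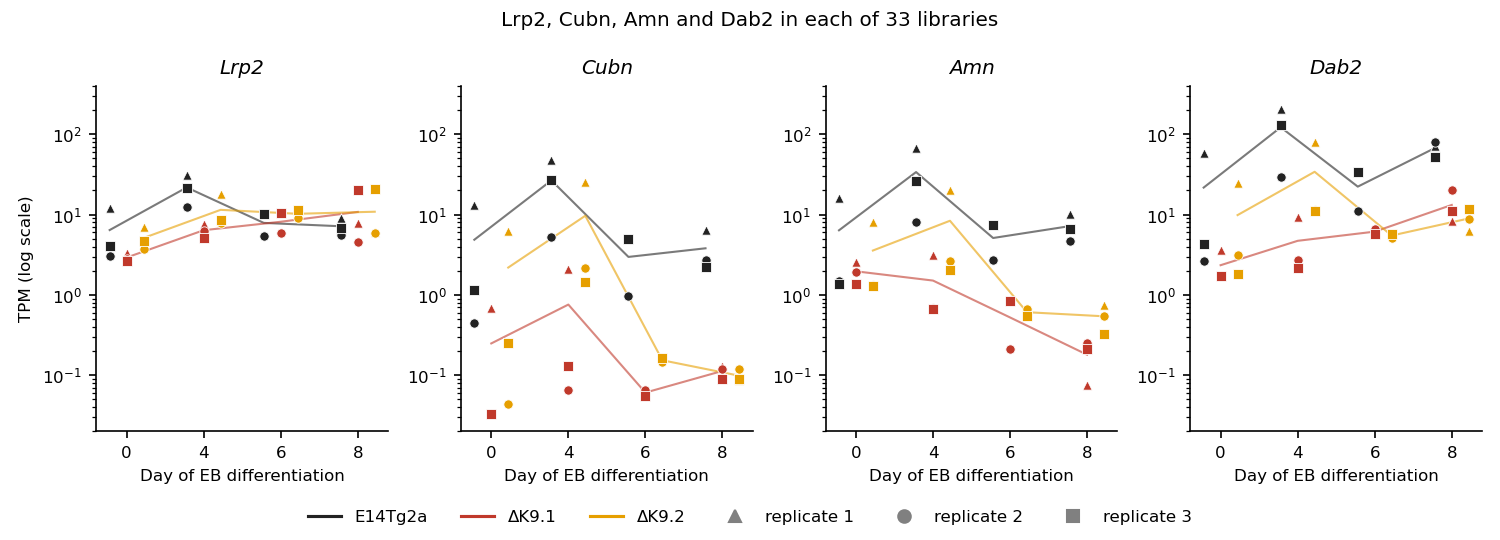
TPM on a log axis for *Lrp2*, *Cubn*, *Amn* and *Dab2* against the day of EB differentiation, with 1 point per library (shape gives the replicate number, colour the line) and lines joining group means. *Cubn* and *Amn* of both clones lie below 1 TPM on days 6 and 8, while *Lrp2* of the clones stays within or above the E14Tg2a range of 5.48 to 10.3 TPM on day 6.

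After day 4, *Dab2* was the only member called above its day 0 level in E14Tg2a. It was at 70.7, 79.4 and 52.2 TPM on day 8, after 11.0 and 33.6 TPM in libraries 2 and 3 of day 6. Its log2 fold change from day 0 to day 8 was 2.69 ± 0.88 (adjusted p = 0.0108), where 15.9% of all genes were called higher. Library 1 of day 0, at 58.2 TPM, was inside the day 8 range and the other 2 libraries of day 0 were far below it. The call was lost without library 2 (adjusted p = 0.0874) or library 3 (adjusted p = 0.0626) of day 0, and in a fit of the compared groups alone (adjusted p = 0.0699).

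*Lrp2* was at 5.48 and 10.3 TPM on day 6 and at 9.05, 5.52 and 6.91 TPM on day 8, a log2 difference from day 0 of 0.32 ± 0.47 (adjusted p = 0.589). *Cubn* was at 0.971 and 4.97 TPM on day 6 and at 6.48, 2.71 and 2.23 TPM on day 8, with a log2 difference from day 0 of 0.35 ± 0.85 (adjusted p = 0.749). *Amn* was at 2.72 and 7.51 TPM on day 6 and at 10.3, 4.72 and 6.62 TPM on day 8, with a log2 difference of 0.75 ± 0.73 (adjusted p = 0.392). For these 3 members, the day 8 values lay between the libraries of day 0. No member was called on day 6 against day 0, where the largest log2 difference was that of *Dab2*, 0.96 ± 0.98 (adjusted p = 0.472). Without the libraries numbered 1, *Amn* and *Dab2* were called higher on both days, by 1.20 and 2.21 on the log2 scale on day 6 and by 1.44 and 3.89 on day 8.

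The proportions of the machinery were compared between days by their medians and ranges. In E14Tg2a, the TPM of *Cubn* divided by that of *Lrp2* in the same library had medians of 1.26 on day 4 (range 0.423 to 1.52), 0.330 on day 6 (0.177 to 0.483) and 0.491 on day 8 (0.322 to 0.716). *Dab2* over *Lrp2* had medians of 6.05 on day 4 (2.38 to 6.62), 2.64 on day 6 (2.00 to 3.27) and 7.82 on day 8 (7.56 to 14.4). Both ratios were thus lower on day 6 than on day 4 at the median, with overlapping ranges, and on day 8 only that of *Dab2* was above its day 4 range. On day 0 the ranges were wide, 0.146 to 1.07 for *Cubn* over *Lrp2* and 0.883 to 4.78 for *Dab2* over *Lrp2*. The ratio of *Amn* to *Cubn* in E14Tg2a had medians from 1.25 to 2.15 over the 4 days. These ratios were not tested.

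Before differentiation, no member differed between the clones and E14Tg2a past the thresholds. *Cubn* was at 0.680, 0.0330 and 0.0331 TPM in ΔK9.1 and at 6.28, 0.0440 and 0.251 TPM in ΔK9.2 on day 0. Compared by library number, *Cubn* was lower in the clone in 6 of 6 pairs, as were 7.99% of all genes, but the log2 difference of the group means was -1.13 ± 0.73 (adjusted p = 0.463). *Amn* ranged from 1.38 to 2.59 TPM in ΔK9.1 and from 1.31 to 8.06 TPM in ΔK9.2, with a log2 difference from E14Tg2a of -0.52 ± 0.63 (adjusted p = 0.756). *Lrp2* ranged from 2.62 to 3.31 TPM and from 3.70 to 7.01 TPM (log2 difference -0.42 ± 0.41, adjusted p = 0.671). *Dab2* was at 3.61, 1.72 and 1.70 TPM in ΔK9.1 and at 24.6, 3.14 and 1.84 TPM in ΔK9.2 (log2 difference -1.17 ± 0.76, adjusted p = 0.467).

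On day 4, the cubam pair and the adaptor were lower in the clones, and 3 of 4 members were called where 0.710% of all genes were called lower. *Cubn* reached 2.08, 0.0650 and 0.131 TPM in ΔK9.1 and 25.4, 2.14 and 1.45 TPM in ΔK9.2, against 5.29 to 47.8 TPM in E14Tg2a. Library 1 of ΔK9.2 lay inside the E14Tg2a range and the other 5 clone libraries lay below it. The log2 fold change of the mean of both clones was -2.76 ± 0.73 (n = 6 and 3, adjusted p = 0.0382). *Amn* was at 3.16, 0.693 and 0.668 TPM in ΔK9.1 and at 20.4, 2.64 and 2.07 TPM in ΔK9.2, with a log2 fold change of -2.77 ± 0.63 (adjusted p = 0.0151). *Dab2* was at 9.30, 2.72 and 2.14 TPM in ΔK9.1 and at 80.1, 11.3 and 11.1 TPM in ΔK9.2, with a log2 fold change of -3.15 ± 0.76 (adjusted p = 0.0217). For both, the exception was again library 1 of ΔK9.2.

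*Lrp2* was not called on day 4 without a replicate block. It was at 7.74, 6.26 and 5.18 TPM in ΔK9.1 and at 17.95, 7.97 and 8.48 TPM in ΔK9.2, with a log2 difference of -1.21 ± 0.41 (adjusted p = 0.122, or 0.0365 and called with the replicate number as a block over all days, but 0.0565 with a block within the day). Each clone library was lower than the E14Tg2a library of its number in 6 of 6 pairs, for *Lrp2* as for the other 3 members and for 16.4% of all genes. The day 4 calls rested on few libraries. None remained without library 1 or library 3 of E14Tg2a or in a fit of the compared groups alone, which called 12 of all genes (from 130). Only *Amn* remained without library 3 of ΔK9.1 or library 2 of ΔK9.2. *Cubn* was also lost without library 2 of ΔK9.1 or library 3 of ΔK9.2, at a pseudocount of 0.1 (adjusted p = 0.0595) and with a replicate block within the day (adjusted p = 0.0650). With the libraries numbered 1 omitted, the 3 calls remained, with adjusted p of 0.00284 for *Cubn*, 0.000956 for *Amn* and 0.00200 for *Dab2*.

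The clones were also compared singly on day 4, a comparison added after the values were seen. In ΔK9.1 all 3 libraries were below all 3 of E14Tg2a for 4 of 4 members, as they were for 15.9% of all genes. *Cubn* (log2 fold change -3.73 ± 0.85, adjusted p = 0.0151), *Amn* (-3.50 ± 0.73, adjusted p = 0.00853) and *Dab2* (-4.26 ± 0.88, adjusted p = 0.00805) were called, against 0.924% of all genes called lower. *Lrp2* was at -1.55 ± 0.47 (adjusted p = 0.0732, or 0.0192 with the block over all days). With a block within the day, *Lrp2* was not called (adjusted p = 0.0513) and *Cubn* was lost (adjusted p = 0.0548). None of these calls remained without library 3 of E14Tg2a, without library 3 of ΔK9.1 or in a fit of the compared groups alone. That last fit called 0 of all genes (from 175), so the loss there is not particular to the members. In ΔK9.2 no member was called, with log2 differences from -2.05 (*Amn*, adjusted p = 0.268, or 0.0423 and called with the block over all days, but 0.149 with a block within the day) to -0.87 (*Lrp2*, adjusted p = 0.550). The difference between the clones was itself not past the thresholds for any member (*Dab2* -2.22 ± 0.88, adjusted p = 0.948).

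**Figure D2:**
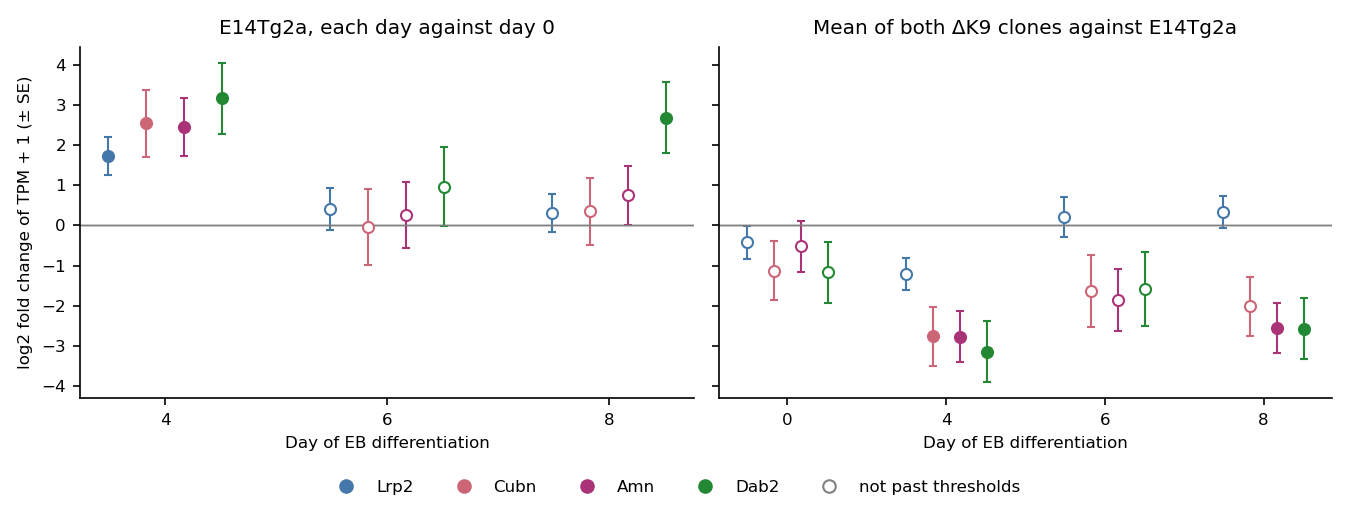
Log2 fold changes of TPM + 1 with SE from limma for the members, in E14Tg2a on each later day against day 0 (left) and for the mean of both ΔK9 clones against E14Tg2a on each day (right); filled points passed the thresholds and open points did not. *Cubn*, *Amn* and *Dab2* lie between -1.58 and -3.15 on days 4, 6 and 8 in the right panel, and *Lrp2* lies at 0.22 on day 6 and 0.34 on day 8.

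By day 6 the cubam transcripts were scarce in both clones. *Cubn* was at 0.0663 and 0.0551 TPM in ΔK9.1 and at 0.144 and 0.163 TPM in ΔK9.2, against 0.971 and 4.97 TPM in E14Tg2a. *Amn* was at 0.210 and 0.837 TPM in ΔK9.1 and at 0.675 and 0.542 TPM in ΔK9.2, against 2.72 and 7.51 TPM. *Dab2* was at 6.56 and 5.72 TPM in ΔK9.1 and at 5.16 and 5.81 TPM in ΔK9.2, against 11.0 and 33.6 TPM. For these 3 members all 4 clone libraries were below both E14Tg2a libraries, as they were for 19.6% of all genes, and none was called (log2 differences of -1.63, -1.86 and -1.58, adjusted p = 0.371, 0.195 and 0.413). With the libraries numbered 1 omitted from the other days, *Cubn* (adjusted p = 0.0457) and *Amn* (adjusted p = 0.00731) were called, and *Amn* was with the replicate block over all days (adjusted p = 0.0374) but not with a block within the day (adjusted p = 0.142). *Lrp2* was instead at 5.86 and 10.4 TPM in ΔK9.1 and at 9.15 and 11.3 TPM in ΔK9.2, each above the E14Tg2a library of its number (5.48 and 10.3 TPM), as were 18.1% of all genes, with a log2 difference of 0.22 ± 0.50 (adjusted p = 0.903).

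On day 8, *Amn* and *Dab2* were lower in the clones past the thresholds, where 3.42% of all genes were called lower. *Amn* was at 0.0752, 0.253 and 0.211 TPM in ΔK9.1 and at 0.758, 0.542 and 0.323 TPM in ΔK9.2, against 10.3, 4.72 and 6.62 TPM in E14Tg2a. The clone mean was 5.01% of the E14Tg2a mean, a ratio of 19.98, and the log2 fold change was -2.56 ± 0.63 (adjusted p = 0.00552). This call held in all 17 alternatives, with adjusted p from 0.000206 to 0.0271. *Dab2* was at 8.22, 20.4 and 11.0 TPM in ΔK9.1 and at 6.21, 8.75 and 11.9 TPM in ΔK9.2, against 52.2 to 79.4 TPM. Its ratio of means was 6.09 and its log2 fold change was -2.57 ± 0.76 (adjusted p = 0.0185), lost only without library 2 of E14Tg2a (adjusted p = 0.0995) among 17 alternatives.

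*Cubn* had the highest ratio of mean TPM between the lines on day 8 and missed the threshold on the log2(TPM + 1) scale, where its difference was smaller than those of *Amn* and *Dab2*. It was at 0.129, 0.121 and 0.0889 TPM in ΔK9.1 and at 0.0866, 0.119 and 0.0892 TPM in ΔK9.2, against 6.48, 2.71 and 2.23 TPM in E14Tg2a. The E14Tg2a mean was 36.0 times the clone mean, or 23.4 times without library 1 of E14Tg2a, the log2 difference was -2.02 ± 0.73 and the adjusted p was 0.0530. It was called in 6 of 17 alternatives, with adjusted p of 0.00501 with the replicate block, 0.0117 with a block within the day, 0.0102 at a pseudocount of 0.1, 0.0477 among genes reaching 5 TPM, 0.0106 in a fit of the compared groups alone and 0.0190 with the libraries numbered 1 omitted. For *Cubn*, *Amn* and *Dab2* every clone library lay below every E14Tg2a library, as was so for 7.99% of all genes.

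*Lrp2* on day 8 was at 7.77, 4.57 and 20.1 TPM in ΔK9.1 and at 6.15, 5.84 and 20.6 TPM in ΔK9.2, against 9.05, 5.52 and 6.91 TPM in E14Tg2a. Library 3 of each clone stood above the other 7 libraries of the day, which overlapped. The log2 difference was 0.34 ± 0.41 (adjusted p = 0.627), and the clone was lower in 3 of 6 pairs of the same number. Library 3 of ΔK9.1 also had the highest *Nanog* of the day (176.7 TPM, against 70.6 and 49.3 TPM in libraries 1 and 2), and its trophoblast markers summed to 148.6 TPM (564.2 and 449.0 TPM). In library 3 of ΔK9.2, *Nanog* was at 126.1 TPM (118.5 and 69.8 TPM) and the trophoblast sum was 307.5 TPM (443.9 and 665.4 TPM). Visceral endoderm markers without *Rhox5* summed to 36.2 and 64.0 TPM in these libraries, the lowest of each clone on day 8, and the part of these differences in the *Lrp2* level was not tested. In the same 2 libraries, *Cubn*, *Amn* and *Dab2* lay within the range of the other clone libraries of the day. Within its own clone, library 3 was the highest for *Dab2* in ΔK9.2 and the lowest for *Cubn* in ΔK9.1 and *Amn* in ΔK9.2. The trophoblast sum was mostly *Hand1* in E14Tg2a on day 8 (mean 582.1 TPM, sums 636.1 to 707.8 TPM), and *Elf5* and *Tpbpa* were not listed. Whether this sum follows trophoblast cells was not tested.

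Taken singly on day 8, ΔK9.1 had *Amn* called lower (log2 fold change -2.75 ± 0.73, adjusted p = 0.0156), where 2.41% of all genes were. In a fit of the compared groups alone *Amn* was at -2.75 ± 0.27 and not called (adjusted p = 0.0693). That fit called 1 of all genes (from 506). *Dab2* (-2.34 ± 0.88, adjusted p = 0.0856) and *Cubn* (-2.01 ± 0.85, adjusted p = 0.126) did not pass, but both did with the replicate block over all days (adjusted p = 0.0299 and 0.0204). ΔK9.2 had *Amn* (-2.37 ± 0.73, adjusted p = 0.0263) and *Dab2* (-2.80 ± 0.88, adjusted p = 0.0290) called, where 4.24% of all genes were, and *Cubn* also with the block (adjusted p = 0.0144). Leaving out any 1 library of ΔK9.2 or of E14Tg2a on day 8 took away at least 1 of these ΔK9.2 calls. No member differed between the clones past the thresholds (largest log2 difference 0.46 ± 0.88, *Dab2*, adjusted p = 0.992).

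Within the clones, neither cubam gene was called against day 0 on any day in the fit without a replicate block. *Cubn* had log2 differences on day 8 against day 0 of -0.13 ± 0.85 in ΔK9.1 (adjusted p = 0.922) and -0.95 ± 0.85 in ΔK9.2 (adjusted p = 0.367). *Amn* was at -1.31 ± 0.73 (adjusted p = 0.139) and -1.26 ± 0.73 (adjusted p = 0.155). In ΔK9.1 it was called lower in a fit of the compared groups alone (adjusted p = 0.00288), at a pseudocount of 0.1 (adjusted p = 0.00938) and with the libraries numbered 1 omitted (adjusted p = 0.0408). With the replicate block over all days it was called lower in ΔK9.1 (adjusted p = 0.0306) and in ΔK9.2 (adjusted p = 0.0372). *Lrp2* was the member called in a clone, at 1.37 ± 0.47 in ΔK9.1 on day 8 (adjusted p = 0.0180), where 10.9% of all genes were called higher. That call was lost without library 3 of day 8, the library at 20.1 TPM, with a log2 difference of 0.84 (adjusted p = 0.153), and in a fit of the compared groups alone (adjusted p = 0.0663). *Dab2* was at 2.04 ± 0.88 in ΔK9.1 (adjusted p = 0.0561) and 0.53 ± 0.88 in ΔK9.2 (adjusted p = 0.647). It was called in ΔK9.1 at a pseudocount of 0.1 (adjusted p = 0.0370), in the compared groups alone (adjusted p = 0.00874) and without the libraries numbered 1 (adjusted p = 0.00138), and in ΔK9.2 without the libraries numbered 1 (adjusted p = 0.0166). The block over all days also called it in ΔK9.1 (adjusted p = 0.0204). On days 4 and 6, 0 members were called against day 0 in either clone in the fit without a block. With the block over all days, *Lrp2* in ΔK9.1 on day 6 (adjusted p = 0.0210) and *Cubn* in ΔK9.2 on day 4 (adjusted p = 0.0482) were called higher. Whether the numbers also pair the days of a line was not checked. An interaction term compared the change from day 0 to day 8 in the clones with that of E14Tg2a. No member passed in the fit without a block, with *Amn* at -2.04 ± 0.89 (adjusted p = 0.173, or 0.0373 and called with the block) and *Cubn* at -0.89 ± 1.04 (adjusted p = 0.668).

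The clones on day 8 were also set against E14Tg2a on day 6, 1 step earlier. *Dab2* differed by -0.84 ± 0.88 on the log2 scale (adjusted p = 0.614) and *Lrp2* by 0.25 ± 0.47 (adjusted p = 0.808). *Amn* (-2.07 ± 0.73, adjusted p = 0.0823) and *Cubn* (-1.63 ± 0.85, adjusted p = 0.253) were also not called, although the 6 clone libraries of day 8 (at most 0.129 TPM of *Cubn* and 0.758 TPM of *Amn*) were all below both E14Tg2a libraries of day 6, as was so for 8.28% of all genes. Without the libraries numbered 1, *Amn* and *Cubn* were called, with adjusted p of 0.00166 and 0.0257, and likewise with the replicate block (adjusted p = 0.00278 and 0.0196).

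Over the 12 group means, *Cubn* and *Amn* followed each other closely. Pearson's r of their log2(TPM + 1) was 0.968, which placed *Amn* as the third most similar of 12079 ranked genes to *Cubn*, and *Cubn* as the second most similar to *Amn*. The genes nearest to *Cubn* were *Srgn* (r = 0.983), *Nostrin* (0.973), *Amn*, *Pla2g12b* (0.959) and *Timd2* (0.954), and those nearest to *Amn* were *Srgn* (0.972), *Cubn*, *Klb* (0.963), *Nostrin* (0.961) and *Pla2g12b* (0.957). Of the 10 nearest genes of each, 8 were shared. *Dab2* was 26th in the ranking for *Cubn* (r = 0.834) and 79th in that for *Amn* (r = 0.769). Its own nearest genes were *Mttp* (0.971), which loads lipid onto apolipoprotein B, the lysosomal proteases *Ctsl* (0.954) and *Ctsh* (0.953), *Clic6* (0.950) and *Aqp8* (0.948), with *Apob*, *Ttr* and *Apoa1* also among the first 10.

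*Lrp2* stood apart in this ranking. Its r was 0.679 with *Dab2*, 0.540 with *Cubn* and 0.369 with *Amn*, which came 167th, 527th and 1441st. Its nearest genes were *Stk17b* (0.896), *Atad1* (0.887), *Adk* (0.884), *Akr1b10* (0.882) and *Mplkip* (0.865), and *Wt1*, a gene of the nephric and mesothelial lineages, was the sixth (0.862). Of these 10 genes, 4 remained with Spearman's correlation and 2 with Pearson's over the 33 libraries, against 8 and 10 for *Cubn*. The 12 group means share their libraries across genes and come from 3 related lines, so these values are a description.

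Libraries of the same group varied together for the whole set. After each group mean was subtracted, r over the 33 libraries was 0.972 for *Cubn* and *Amn*, 0.949 for *Cubn* and *Dab2* and 0.926 for *Amn* and *Dab2*. *Lrp2* had values from 0.644 to 0.670 with the other 3. The libraries numbered 1 were part of this spread, since *Cubn* of day 0 was 11.4 times the higher of the other libraries in E14Tg2a, 20.5 times in ΔK9.1 and 25.0 times in ΔK9.2. For *Lrp2* the same ratios were 3.00, 1.17 and 1.51.

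The levels were set beside visceral endoderm markers in each library. *Rhox5* was kept out of the sum, a choice made after its values were seen, because it was at 315.4 to 404.7 TPM in undifferentiated ΔK9.1. The other 12 markers summed to 8.23 to 67.1 TPM in E14Tg2a on day 0, 44.4 to 419.0 TPM on day 4, 135.8 and 205.6 TPM on day 6 and 301.4 to 359.0 TPM on day 8. On day 8 the sums were 36.2 to 154.6 TPM in ΔK9.1 and 64.0 to 85.5 TPM in ΔK9.2. Correlations used all 13 markers, *Rhox5* included, and so a different set from the sums. Over the 33 libraries, r with the mean log2(TPM + 1) of the 13 markers was 0.869 for *Dab2*, 0.614 for *Cubn*, 0.607 for *Amn* and 0.426 for *Lrp2*. With the 12 parietal endoderm markers, r was 0.868 for *Dab2*, 0.641 for *Cubn*, 0.631 for *Amn* and 0.424 for *Lrp2*, and *Lrp2* had its highest r, 0.528, with the nephric markers. The sum changed in make-up between days. In the clones, the means of *Gata4*, *Gata6*, *Pdgfra* and *Sox17* were 1.66, 1.43, 0.822 and 1.64 TPM on day 4 and 20.4, 18.6, 20.6 and 11.5 TPM on day 8. Those of *Afp*, *Apom* and *Hnf4a* were 10.7, 2.95 and 1.58 TPM on day 4 and 2.30, 1.48 and 0.614 TPM on day 8, lower on day 8 as the means of *Cubn* and *Amn* were. On day 4 the 12 markers summed to 93.1 TPM in library 1 of ΔK9.2 and to 3.91 to 22.7 TPM in the other clone libraries. *Cubn* and *Amn* of the clones were also highest in that library (25.4 and 20.4 TPM), so these day 4 means lean on it. In E14Tg2a, *Afp* was at a mean of 117.3 TPM on day 4 and 66.1 TPM on day 8. *Apom* was at 25.2 and 23.6 TPM there, and *Hnf4a* at 8.14 and 10.3 TPM, so the 3 did not fall alike. *Gata4*, *Gata6*, *Pdgfra* and *Sox17* were at means of 12.4, 8.245, 6.32 and 13.85 TPM on day 4 and 62.9, 54.25, 41.4 and 42.4 TPM on day 8. The part of such cells in the differences between the lines was not tested.

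**Figure D3:**
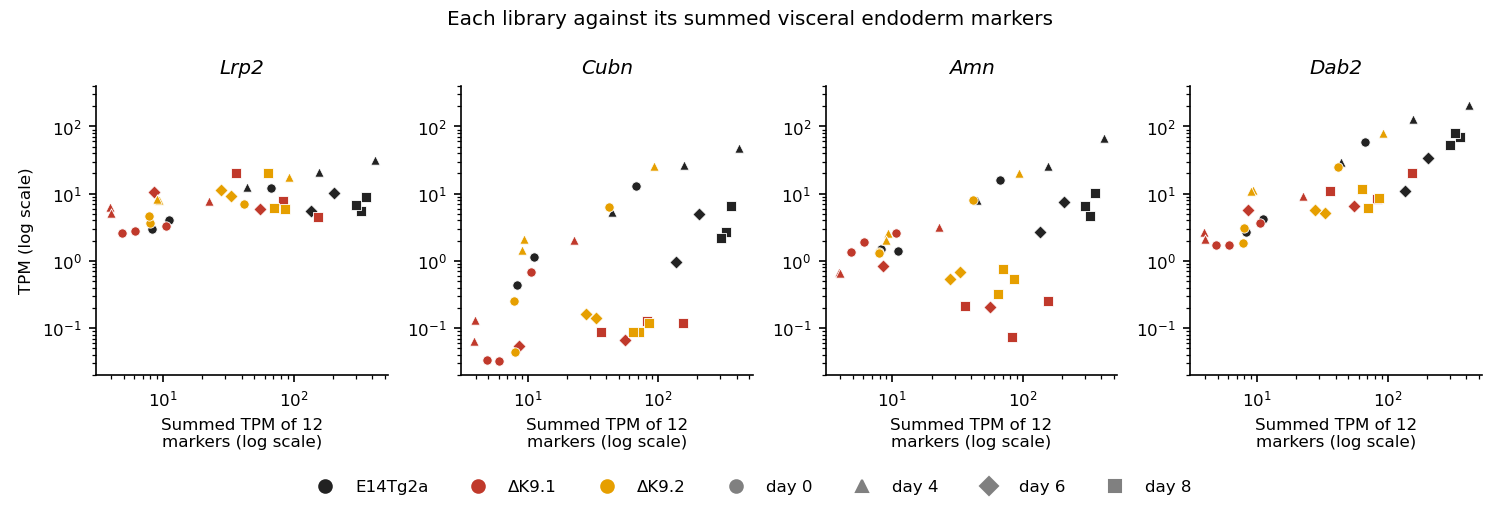
TPM of each member (y, log axis) against the summed TPM of 12 visceral endoderm markers (x, log axis) in each of 33 libraries, with colour for the line and shape for the day. The day 8 clone libraries have marker sums of 36.2 to 154.6 TPM, and in them *Cubn* lies at or below 0.129 TPM and *Lrp2* spans 4.57 to 20.6 TPM; the markers that make up the sum differ between days.

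Markers of other cell types were counted in the same comparison. Of the 12 parietal endoderm genes, 8 were called lower in the clones on day 8 (median log2 difference -1.28), among them *Lama1* (-2.33), *Col4a2* (-2.08) and *Sparc* (-1.80). Of 5 definitive endoderm genes 1 was lower, of 6 trophoblast genes 1 was higher, and of 4 endothelial genes 3 were lower, where 3.42% of all genes were called lower and 0.826% higher. None of 5 neural, 3 nephric or 2 macrophage genes was called. In E14Tg2a, ΔK9.1 and ΔK9.2, in that order, the neural markers summed to 29.6 to 54.6, 45.5 to 49.8 and 33.9 to 51.2 TPM on day 8, and the nephric markers to 6.99 to 10.5, 8.58 to 14.3 and 6.23 to 18.7 TPM. *Lrp2* is also made in neural and nephric epithelia, and their part in its level was not tested.

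Many genes for proteins that this machinery is known to bind were lower in the clones on day 8. Of 12 measured ligands, 7 were lower in the clones, where 3.42% of all genes were, and none was higher. The median log2 difference was -1.35 against -0.0035 over all genes. The 7 included *Ttr* (-4.81) and *Rbp4* (-3.90), the carriers of thyroid hormone and retinol, the apolipoprotein genes *Apoa1* (-3.62) and *Apob* (-3.57) and the transferrin gene *Trf* (-2.37). In E14Tg2a, 9 of the 12 rose from day 0 to day 8, where 15.9% of all genes did, with *Ttr* at 6.29 and *Rbp4* at 4.97. On day 4, 4 of 12 were lower in the clones, where 0.710% of all genes were.

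Genes of the general uptake route were counted in the same way. Of 20 partners in coated pits, 2 were called lower in the clones on day 8, where 3.42% of all genes were, *Myo6* (-1.68), the motor that draws vesicles inward, and *Lrpap1* (-1.37), the chaperone that keeps ligands from LRP2 during its synthesis. The median of the 20 was -0.23. In E14Tg2a, *Myo6* (1.45), *Numb* (1.17) and *Lrpap1* (1.05) rose from day 0 to day 8, where 15.9% of all genes did, and the clathrin light chain gene *Cltb* fell by 3.00 on the log2 scale, where 11.0% of all genes were called lower. On day 4, 0 of the 20 were called between the clones and E14Tg2a.

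Among 25 genes of endosomes and lysosomes, 4 were lower in the clones on day 8, where 3.42% of all genes were, and none was higher (median -0.39). All 4 encode lysosomal proteases, *Ctsh* (-3.92), *Lgmn* (-1.66), *Ctsb* (-1.64) and *Ctsl* (-1.16). In E14Tg2a, 8 of the 25 rose from day 0 to day 8, where 15.9% of all genes did. They were led by *Ctsh* (4.67), the chloride transporter gene *Clcn5* (2.28) and the protease gene *Lgmn* (1.62). On day 4 the clones were lower for 3 of the 25, and for 0.710% of all genes.

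Of 13 other LDL receptor family genes, 1 was called lower in the clones on day 8, *Lrp10* (-1.06), where 3.42% of all genes were, and the median was 0.01. In E14Tg2a, 5 of the 13 rose from day 0 to day 8, among them *Vldlr* (2.58), *Lrp3* (1.69) and *Lrp10* (1.26), and *Sorl1* (-1.74) and *Lrp11* (-1.06) fell. Of all genes, 15.9% were called higher and 11.0% lower in that comparison. None was called between the lines on day 4, when *Lrp10* was at -0.70 (adjusted p = 0.0261).

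**Figure D4:**
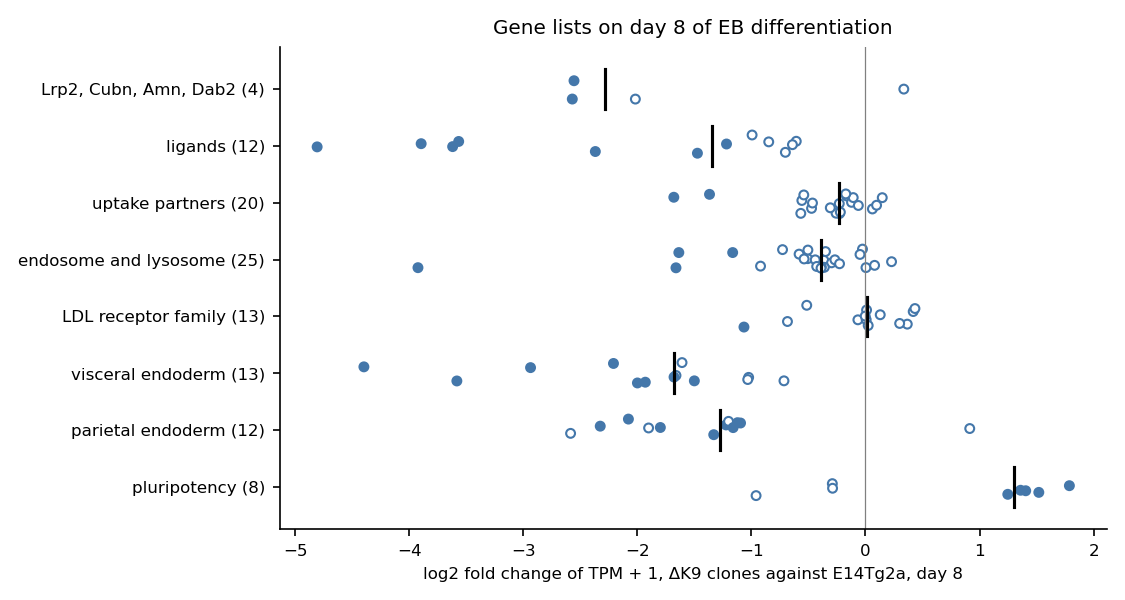
Log2 fold changes of TPM + 1 for the mean of both ΔK9 clones against E14Tg2a on day 8 for 8 gene lists, with the number of genes measured in parentheses; filled points passed the thresholds, open points did not, and a black bar marks the median. The ligand, visceral endoderm and parietal endoderm lists have medians of -1.35, -1.68 and -1.28, and the LDL receptor family has a median of 0.01.

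The visceral endoderm list itself had 8 of 13 genes lower in the clones on day 8, where 3.42% of all genes were. *Afp* (-4.40), *Apom* (-3.58), *Hnf4a* (-2.94) and *Ihh* (-2.21) were the furthest. In E14Tg2a, 12 of 13 were higher on day 8 than on day 0, as were 15.9% of all genes. On day 4, 7 of 13 were lower in the clones, where 0.710% of all genes were. On day 8, *Lrp2* was lower in the clone in 3 of 6 pairs of the same number, and *Cubn*, *Amn* and *Dab2* were each lower in 6 of 6, as were 18.7% of all genes. Of 8 pluripotency genes 5 were higher in the clones on day 8, *Nanog* (1.79) the most, where 0.826% of all genes were called higher.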

How the data were processed

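The 33 libraries were stranded and poly-A selected. The authors aligned reads to mm10 with STAR, quantified genes with RSEM and deposited TPM for 16336 genes, each with a group mean of at least 1 TPM somewhere. Tool versions and gene annotation are not given in the sources used here. The deposited table also holds the authors' DESeq2 fold changes and FDR, which were not used. The methods state that outliers in a PCA were omitted before TPM were computed, and do not say what was omitted.

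TPM were converted to log2(TPM + 1) and fitted with limma 3.58.1 in R 4.3.3, with moderated variances that follow the mean level, in 1 model over all 12 groups, with Benjamini-Hochberg adjustment over 16336 genes and no further filter. The procedure was tested on simulated data. The depth is unknown, so precision was taken from replicates. Pearson correlations for likeness used genes with a group mean of at least 5 TPM. Lines were differentiated side by side. Deviations from the group means were correlated for each E14Tg2a and clone library of the same day and number. In 22 of 22 pairs, r was above 0.1 (lowest 0.104). The day 6 values among them repeat between libraries 2 and 3, so the 22 are not independent. On this basis the numbers were taken as pairing the lines, and fits with the number as a block are given beside calls they changed. That reading of the numbers was settled after both fits had been seen, and the fit without a block stays the reported one. Alternatives were pseudocounts, filters, scaling, replicate blocks, fits of compared groups alone and single libraries left out. Genes named from a list were up to 5 past the thresholds with the largest change from day 0 to day 8 in E14Tg2a, or between clones and E14Tg2a on day 8. Members and lists were chosen with earlier results of these data known. Promoters came from RefSeq (GRCm38.p6) and motifs were matched by letters. Figures were drawn with matplotlib 3.10.9. A few list genes, such as *Gc* and *Alb*, were not analysed here.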

Additional observations from a re-analysis of the deposited data

How the results depend on the processing

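The direction of a called member never turned. Of 1212 member values under alternatives, 1096 kept their side of the thresholds, 63 lost a call and 53 gained one. With a pseudocount of 0.1, members called were 3 (from 1; *Amn* lower and *Dab2* higher added) in ΔK9.1 on day 8 against day 0, 2 (from 1; *Cubn* added) in ΔK9.1 against E14Tg2a on day 8, and 1 (*Amn*, from 0) in the clones on day 8 against E14Tg2a on day 6, where 28.5%, 4.06% and 3.19% of all genes were called. *Cubn* lost its day 4 calls in E14Tg2a and in the clones and gained one in ΔK9.2 on day 8. Scaling moved the median of all genes by 0.213 (ΔK9.1) and 0.153 (ΔK9.2) on day 4 against day 0.

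Replicate numbers are shared across lines that were differentiated side by side, but neither the labels nor the methods tie a number to an assay, and pairs were checked only within a day. Deviations from group means correlated with a median of 0.222 in 33 same-number pairs of a day (-0.0129 to 0.458, 31 above 0.1). The other 2 were between the clones on day 6. The median was -0.127 in 60 other pairs. Deviations within a group cancel out, so positive values in same-number pairs go with negative ones elsewhere. The contrast with the other pairs is therefore not separate evidence of pairing. On day 6, with 2 libraries per line, the values for libraries 2 and 3 repeat each other (0.202, 0.104 and -0.0129). A replicate block gave 1 member (from 0) in ΔK9.1 on day 6 (*Lrp2* higher) and in ΔK9.2 on days 4 (*Cubn* higher) and 8 (*Amn* lower) against day 0, and, as *Amn* lower, in the clones on day 6, in the interaction and in ΔK9.2 on day 4. It gave 2 (from 0; *Cubn* and *Amn*) in the clones on day 8 against E14Tg2a on day 6, and 3 (from 1) in ΔK9.1 on day 8, against both E14Tg2a and day 0 (*Amn* lower, adjusted p = 0.0306). The block also added *Lrp2* lower on day 4, in the clones (adjusted p = 0.0365) and in ΔK9.1 (adjusted p = 0.0192), and *Cubn* lower in the clones (adjusted p = 0.00501) and in ΔK9.2 on day 8. In those fits with another count, 0.275% to 3.80% of all genes were called between lines and 7.74% to 22.3% within a line. A block within the day also gave 3 in ΔK9.1 against E14Tg2a on day 8, added *Cubn* in the clones (adjusted p = 0.0117) and in ΔK9.2 on day 8, and lost *Cubn* on day 4 in the clones (adjusted p = 0.0650) and in ΔK9.1. It called 49, 0 and 222 genes of all in the clones on day 4, on day 6 and in ΔK9.1 on day 8 (from 130, 265 and 506).

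Fits of the compared groups alone called 0 members in E14Tg2a on days 4 and 8 against day 0, where 6.42% and 26.3% of all genes were called. They also called 0 members in the clones on day 4, in ΔK9.1 on day 4 and in ΔK9.1 on day 8 against E14Tg2a, where 12, 0 and 1 of all genes were called. They called 2 members in ΔK9.1 on days 6 and 8 against day 0 (11.5% and 19.7% of all genes), and 1 in the clones on day 8 against E14Tg2a on day 6 (0.3%). Of all genes they called 12, 5 and 197 in the clones on days 4, 6 and 8 (from 130, 265 and 693). Without the libraries numbered 1, 2 members were called in E14Tg2a on days 6 and 8 against day 0, in the clones on day 6 and on day 8 against E14Tg2a on day 6, 3 in ΔK9.1 on day 8 against day 0 and against E14Tg2a, and 1 in ΔK9.2 on days 4 and 8 against day 0, in the interaction and in ΔK9.2 on day 4, where 0.275% to 4.13% of all genes were called between lines and 8.63% to 28.9% within a line. The cause of these shifts was not tested.

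Leaving out 1 library at a time, members called ranged from 0 to 4 (E14Tg2a day 4 against day 0), 0 to 2 (day 8 against day 0), 0 to 3 (clones on day 4 and ΔK9.1 on day 4), 1 to 2 (clones on day 8) and 0 to 1 (the interaction, ΔK9.2 against E14Tg2a on day 8, ΔK9.1 on day 8 against day 0 and ΔK9.2 on day 4 against day 0). On day 6 this leaves a single library, assumed to vary like the other groups.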
